A study of Sus scrofa with 12 samples.

Results

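The genes described here are 8 genes of B cells and plasma cells, MS4A1, CD79A, CD79B, PAX5, MZB1, POU2AF1, TNFRSF17 and JCHAIN. They were taken by gene name from a table of expression levels in pig jejunum, the middle part of the small intestine, and rows that share a name were summed. 7 of the 8 names had a row, on 9 of the 41264 rows of the table, which carries 17049 different gene names. PAX5, the transcription factor that holds cells in the B cell identity, had no row under its name and is not analysed here. The libraries were made from 12 piglets in 4 groups of 3. W_Con piglets were sucking piglets taken on the day of weaning at 21 days of age, and PW_Con piglets were weaned piglets of 28 days, which had been weaned for 7 days. In both groups the sows ate a corn and soybean meal diet. W_Res and PW_Res piglets had the same ages, and their sows ate that diet with 300 mg/kg resveratrol, a plant polyphenol, from early gestation to the end of lactation. Only the sows were supplemented, litters were evened out by fostering within a diet, and age and weaning changed together, so that 7 days of growth and the loss of the sow cannot be told apart. The study's text describes male Yorkshire × Duroc piglets, 1 taken from each litter at each age, so that sucking and weaned piglets came from the same litters, and uses the control libraries only, whereas the public record names a pool of Landrace boars as sires. By the study's text, weaned piglets went from milk to solid feed and moved to a nursing room. By the public record they stayed in their pens. Changes of feed and housing cannot be told apart from age either.

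B cells recognise antigen with a surface immunoglobulin that signals through the paired chains CD79A and CD79B, and mature B cells carry MS4A1 (CD20) on their membrane. POU2AF1 is a coactivator that B cells need to form germinal centres. After activation, B cells of the gut become plasma cells, which lose MS4A1, keep POU2AF1, and make the chaperone MZB1, the survival receptor TNFRSF17 (BCMA) and the joining chain JCHAIN. The joining chain links IgA into the dimers that the epithelium carries into the gut lumen. In the small intestine, B cells gather in follicles and Peyer's patches, while plasma cells spread through the lamina propria. Young piglets receive antibodies with the milk, and their own intestinal plasma cells build up after birth.

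Levels are in FPKM, mapped fragments scaled to transcript length and to the size of the library, which allows levels of different genes to be set side by side. The table holds no counts, so that the depth behind a single gene is unknown. Summed FPKM per library lay between 313171 and 334469. In whole pieces of tissue, fewer cells of a type and less RNA per cell cannot be told apart. Over all genes, W_Res replicate 2 stood apart. It had 123 genes of the 12886 tested at more than 3 times their level in every other library, none of them among the 7 listed, while each other library had 2 to 51 such genes. Its median correlation with the other libraries was 0.881, and its summed level of 10 smooth muscle genes was 5105 FPKM, against at most 2418 FPKM in any other library. PW_Con replicate 2 had 14 such genes (0.109%) and did not stand apart over all genes, but 3 of the 14 were MS4A1, CD79B and POU2AF1, and no other library had any of the 7 among its own.

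MS4A1 was close to absent from 10 of the 12 libraries. It was at 0.0774, 0.0244 and 0.169 FPKM in W_Con, at 0.115, 8.10 and 0.0977 FPKM in PW_Con, at 0.0333, 0.986 and 0.255 FPKM in W_Res, and at 0.0852, 0.0802 and 0.0462 FPKM in PW_Res (replicates 1, 2 and 3). PW_Con replicate 2 had 8.21 times the level of the next highest library, W_Res replicate 2. MS4A1 passed the minimum mean of 0.5 FPKM only through PW_Con replicate 2, and its mean over the other 11 libraries was 0.179 FPKM.

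CD79B, the beta chain of the receptor's signalling pair, was at 1.50, 0.851 and 0.644 FPKM in W_Con. It was at 2.25, 37.5 and 3.29 FPKM in PW_Con, at 1.51, 4.13 and 2.47 FPKM in W_Res, and at 1.65, 2.23 and 1.88 FPKM in PW_Res. All 9 libraries of the other groups lay above the W_Con libraries, W_Res replicate 1 only narrowly, and PW_Con replicate 2 lay 9.08 times above the next highest library. Over the 12 libraries, log2(FPKM + 1) of CD79B and MS4A1 had a Pearson correlation of 0.95, and of 0.59 over 11 libraries without PW_Con replicate 2.

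POU2AF1 was at 1.62, 0.698 and 2.70 FPKM in W_Con, at 3.23, 22.2 and 3.87 FPKM in PW_Con, at 1.45, 3.17 and 1.62 FPKM in W_Res, and at 1.68, 5.07 and 5.05 FPKM in PW_Res. The PW_Con libraries lay above the W_Con libraries, while the PW_Res and W_Res libraries overlapped. PW_Con replicate 2 was 4.37 times the next highest library.

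**Figure D1:**
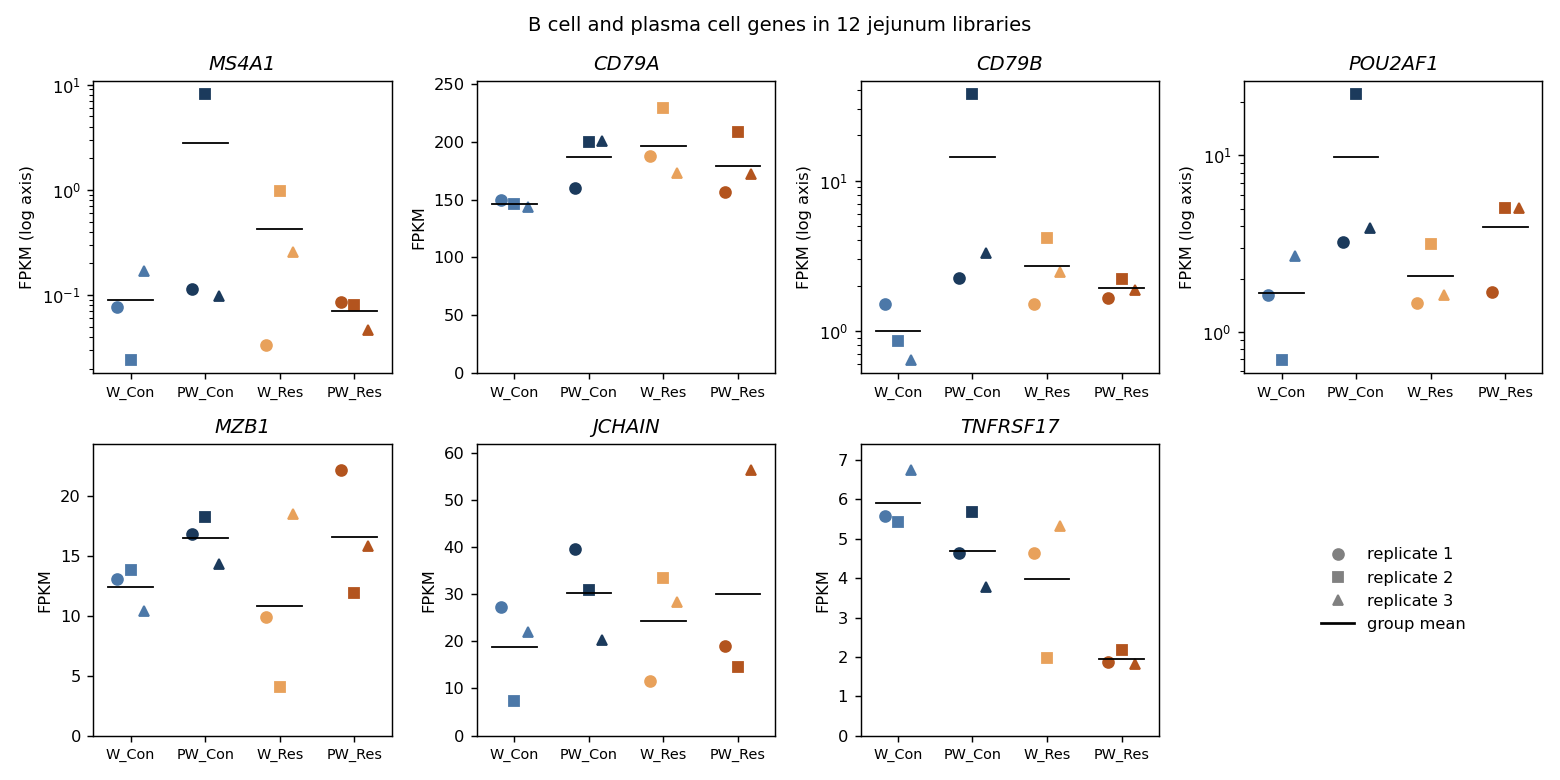
FPKM of the 7 genes in each library, by group; symbols stand for replicates, lines for group means, and MS4A1, CD79B and POU2AF1 have log axes. PW_Con replicate 2 reached 8.10 FPKM of MS4A1, 37.5 FPKM of CD79B and 22.2 FPKM of POU2AF1, above every other library, and TNFRSF17 was lowest in PW_Res, at 1.81 to 2.18 FPKM.

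CD79A, the alpha chain of the same signalling pair, was the most abundant of the 7 genes. It was at 150, 146 and 144 FPKM in W_Con, at 160, 199.9 and 201 FPKM in PW_Con, at 188, 230 and 173 FPKM in W_Res, and at 157, 209 and 172 FPKM in PW_Res. The W_Con libraries were the lowest of the 12. Although the chains act as a pair, the level of CD79A was 5.33 times that of CD79B in PW_Con replicate 2 and between 55.6 and 223 times that of CD79B in the other libraries. CD79A did not share the high level of PW_Con replicate 2. The row named CD79A is a locus of 5 transcripts, 3 with an Ensembl identifier and 2 assembled by the authors' software. In the RefSeq pig annotation, a neighbour of CD79A is RPS19, a ribosomal protein gene. The row named RPS19 was at 0 to 0.343 FPKM. The 47 ribosomal protein genes with a mean of at least 0.5 FPKM had a median of 335 to 550 FPKM in every library. Ribosomal protein rows below that mean, like RPS19, were left out of the 47, and how many others were as low was not counted. Over the 12 libraries, log2(FPKM + 1) of CD79A and CD79B had a Pearson correlation of 0.56 (Spearman 0.80), and of 0.83 (Spearman 0.82) without PW_Con replicate 2. CD79A had a Pearson correlation of 0.74 (Spearman 0.80) with the mean standardized level of these 47 genes, and of 0.26 (Spearman 0.12) with that of 12 other B cell genes. Without PW_Con replicate 2, the correlations with these lists were 0.77 and 0.05. Whether fragments of RPS19 were counted in the CD79A row was not tested, and values of this row are given below as values of the row.

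**Figure D2:**
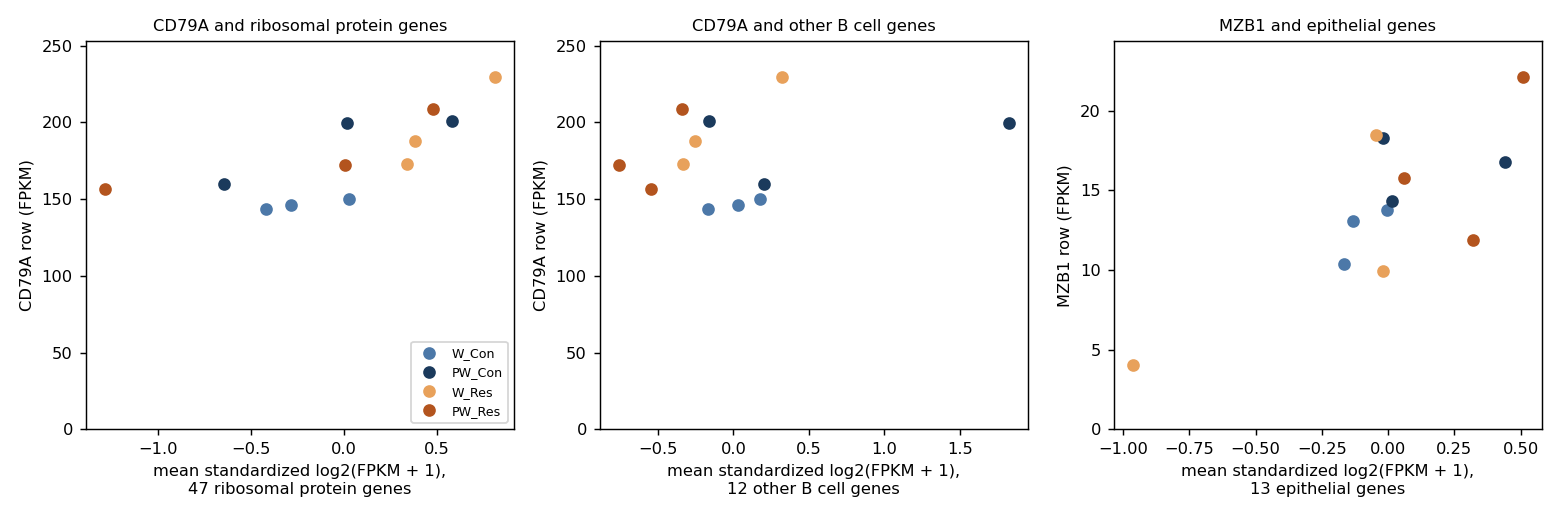
FPKM of the CD79A row and of the MZB1 row in the 12 libraries against the mean standardized log2(FPKM + 1) of other genes, coloured by group. The Pearson correlation of CD79A was 0.74 with the 47 ribosomal protein genes and 0.26 with the 12 other B cell genes, beside 0.56 with CD79B, which is not plotted, and MZB1 is plotted against 13 epithelial genes (0.83).

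Of the plasma cell genes, MZB1 was at 13.1, 13.8 and 10.4 FPKM in W_Con, at 16.8, 18.2 and 14.3 FPKM in PW_Con, at 9.92, 4.05 and 18.4 FPKM in W_Res, and at 22.1, 11.9 and 15.8 FPKM in PW_Res. The PW_Con libraries lay above the W_Con libraries by a narrow margin, and W_Res replicate 2 was the lowest library. The row named MZB1 spans 17 transcripts, 15 of which were assembled by the authors' software without an Ensembl identifier. Its Pearson correlation over the 12 libraries was 0.83 (Spearman 0.52) with 13 epithelial genes, 0.71 (Spearman 0.80) with 9 genes of the distal small intestine, and 0.07 (Spearman -0.09) with 13 other plasma cell genes. W_Res replicate 2 was also the lowest library for the summed epithelial genes, at 4598 FPKM against at least 6556 FPKM elsewhere. Which transcripts of this row carried its fragments was not tested.

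JCHAIN was at 27.4, 7.38 and 21.9 FPKM in W_Con, at 39.7, 30.9 and 20.2 FPKM in PW_Con, at 11.5, 33.4 and 28.3 FPKM in W_Res, and at 19.0, 14.6 and 56.3 FPKM in PW_Res. All groups overlapped, and the spread within PW_Res (SD 22.9 FPKM) was larger than any difference between group means, which ran from 18.9 FPKM in W_Con to 30.3 FPKM in PW_Con. JCHAIN is the sum of 2 rows, the smaller of which was listed at 0 in 10 libraries and at 1.15 FPKM in W_Res replicate 2.

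TNFRSF17 was at 5.57, 5.43 and 6.74 FPKM in W_Con, at 4.63, 5.67 and 3.79 FPKM in PW_Con, at 4.63, 1.96 and 5.33 FPKM in W_Res, and at 1.88, 2.18 and 1.81 FPKM in PW_Res. The group means ordered as W_Con, PW_Con, W_Res and PW_Res, at 5.92 ± 0.719, 4.70 ± 0.944, 3.98 ± 1.78 and 1.96 ± 0.197 FPKM (SD, n = 3 each). W_Con overlapped with PW_Con, and PW_Con with W_Res, while the highest PW_Res library lay below every W_Con and PW_Con library. TNFRSF17 is also the sum of 2 rows. The row that the authors' software assembled without an Ensembl transcript was at 2.70, 3.55 and 1.80 FPKM in PW_Con and at 0.0988, 1.09 and 0.902 FPKM in PW_Res. The row with Ensembl transcripts was at 1.93, 2.12 and 1.98 FPKM in PW_Con and at 1.78, 1.09 and 0.906 FPKM in PW_Res. PW_Res was below PW_Con in both rows.

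The high level of PW_Con replicate 2 extended to other genes of B cells and their follicles. CR2, the complement receptor of mature B cells and follicular dendritic cells, was at 18.7 FPKM there and at most at 2.33 FPKM elsewhere. Its median over the other 11 libraries was 0.0724 FPKM. Like MS4A1, it passed the minimum mean of 0.5 FPKM only through PW_Con replicate 2, so its level is given as a description. LTB, a cytokine that organises lymphoid tissue, was at 22.7 FPKM there and at most at 5.57 FPKM elsewhere. PW_Con replicate 2 was the highest library for 3 of the 7 listed genes, for 11 of 14 other B cell genes, for 7 of 11 germinal centre and follicle genes, for 2 of 13 plasma cell genes and for 6 of 14 T cell genes. It was the highest library for 5.01% of all genes tested, and for none of 11 myeloid, 13 epithelial and 10 smooth muscle genes. The list counts are over genes with a row, whereas the 5.01% is over genes tested. Tested were 12 other B cell, 9 germinal centre and follicle, 13 T cell and 10 myeloid genes. The other B cell and follicle genes that were not tested were all highest in PW_Con replicate 2. The counts are descriptions of this library. The genes of plasma cells among the 7, MZB1, TNFRSF17 and JCHAIN, were not highest in this library. Whether the piece of tissue held a lymphoid follicle was not tested.

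**Figure D3:**
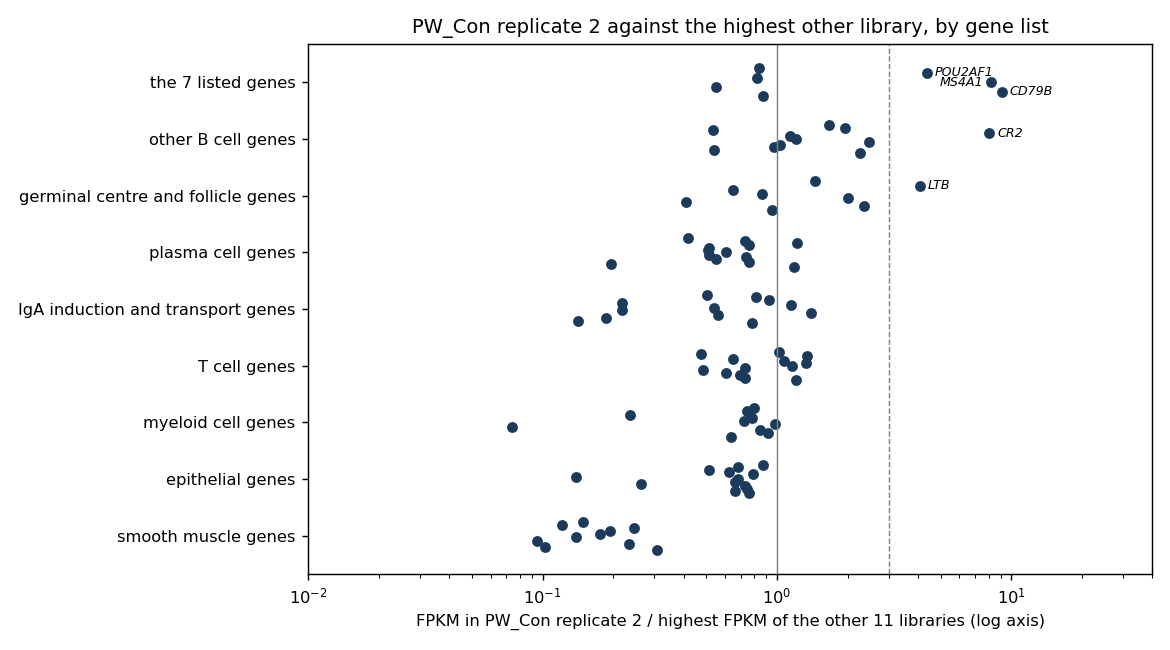
Level in PW_Con replicate 2 divided by the highest level among the other 11 libraries (log axis), 1 point per tested and reported gene, by gene list; the solid line marks a ratio of 1 and the dashed line a ratio of 3. MS4A1 (8.21), CD79B (9.08), POU2AF1 (4.37), CR2 and LTB lie beyond a ratio of 3, and all myeloid, epithelial and smooth muscle genes lie below 1.

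The first comparison asks how the genes differed between sucking piglets and weaned piglets of control sows. CD79B and POU2AF1 were higher in weaned piglets at the study's standard, an unadjusted P under 0.05 with a log2 fold change above 1 or below -1. The standard was met by 3.1% of all genes tested, 1.36% in the higher direction. CD79B had a log2 fold change of 2.05 on the log2(FPKM + 1) scale (standard error, SE, 0.71; limma adjusted p = 0.207), and the PW_Con and W_Con libraries did not overlap. POU2AF1 had a log2 fold change of 1.62 (SE 0.59, limma adjusted p = 0.229), again without overlap. Without PW_Con replicate 2, neither gene met the standard. The log2 fold change was then 0.93 for CD79B, with an unadjusted P under 0.05, and 0.83 for POU2AF1, with an unadjusted P over 0.05, and the W_Con libraries stayed below the 2 remaining PW_Con libraries for both. CD79B also fell short of the standard with only W_Con and PW_Con in the fit, at an unchanged 2.05 with an unadjusted P over 0.05, and POU2AF1 did so without W_Con replicate 2, at 1.33 with an unadjusted P over 0.05.

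The other 5 genes did not meet the standard in control litters. MS4A1 had a log2 fold change of 1.04 (SE 0.64), which was 0.02 without PW_Con replicate 2. The CD79A row, at 0.34 (SE 0.19), and MZB1, at 0.38 (SE 0.40), did not overlap between the ages. Groups without overlap were found for 4 of the 7 genes and for 24.9% of all genes tested. JCHAIN had a log2 fold change of 0.78 (SE 0.58), and 0.24 without W_Con replicate 2. TNFRSF17 had -0.29 (SE 0.26), and -0.17 without PW_Con replicate 3. Of the 7 log2 fold changes 6 were above 0, as were 48.4% of those of all genes tested. The median over the 7 genes was 0.78, and -0.014 over all genes tested. Without PW_Con replicate 2, the median over the 7 genes was 0.31. MS4A1 passed the filter through 1 weaned library, so these counts and medians are descriptions. Genes of the distal small intestine differed among the control libraries, with a summed level of 82.4 to 8400 FPKM in W_Con and of 6805 to 10015 FPKM in PW_Con. Of 9 such genes 7 had a log2 fold change above 0 with weaning, 1 past the standard, with a median of 0.95. Without PW_Con replicate 2, 6 were above 0 and 0 past the standard, with a median of 1.00. Their part in the values of the 7 genes was not tested.

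In the litters of resveratrol-fed sows, none of the 7 genes met the standard between sucking piglets and weaned piglets, which 4.94% of all genes tested met. With an unadjusted P under 0.05 (17.6% of all genes tested) there was TNFRSF17, with a log2 fold change of -0.68 (SE 0.26, limma adjusted p = 0.229). Its log2 fold change lay between -1.02 and -0.47 when a library was left out. It also had an unadjusted P under 0.05 over both sets of litters (19% of all genes tested), at -0.48 (SE 0.19). The log2 fold change was 0.63 (SE 0.59) for POU2AF1, 0.74 (SE 0.40) for MZB1, 0.17 (SE 0.58) for JCHAIN, and -0.28 (SE 0.71) for CD79B. For MZB1 it was 0.23 without W_Res replicate 2 and 1.20 without W_Res replicate 3. With a library left out, the log2 fold change lay between -0.53 and -0.0167 for CD79B and between 0.43 and 1.02 for POU2AF1. Smooth muscle genes were lower in the weaned piglets of these litters, 8 of 10 past the standard (median -2.03) and 5 without W_Res replicate 2, and their part in the values of the 7 genes was not tested. The median over all genes tested was -0.15 in this comparison, and rescaling the libraries by the median of ratios moved it to -0.0032. Over both sets of litters, POU2AF1 met the standard at a log2 fold change of 1.12 (SE 0.42, limma adjusted p = 0.201), where 1.42% of all genes tested did, 0.737% in the higher direction. It was 0.73 without PW_Con replicate 2 and 0.98 without W_Con replicate 2, below the standard in both cases.

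The difference between the weaning effects of the 2 sets of litters was tested as an interaction. CD79B met the standard, as did 7.76% of all genes tested, 5.95% in the lower direction. Its weaning effect was lower in resveratrol litters by a log2 difference of -2.33 (SE 1.01, limma adjusted p = 0.340). Without PW_Con replicate 2 the difference was -1.21 and still met the standard. It no longer met the standard without W_Con replicate 2 or 3, W_Res replicate 2 or 3, or any of the 3 PW_Res replicates, with values between -2.41 and -2.06, nor with no filter (-2.33) or with median-of-ratios rescaling (-2.21). No other gene of the 7 met the standard, and the differences were -1.39 (SE 0.91) for MS4A1 and -0.99 (SE 0.83) for POU2AF1. Without PW_Con replicate 2 they were -0.38 and -0.21, and without W_Res replicate 2 they were -1.13 and -0.75.

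**Figure D4:**
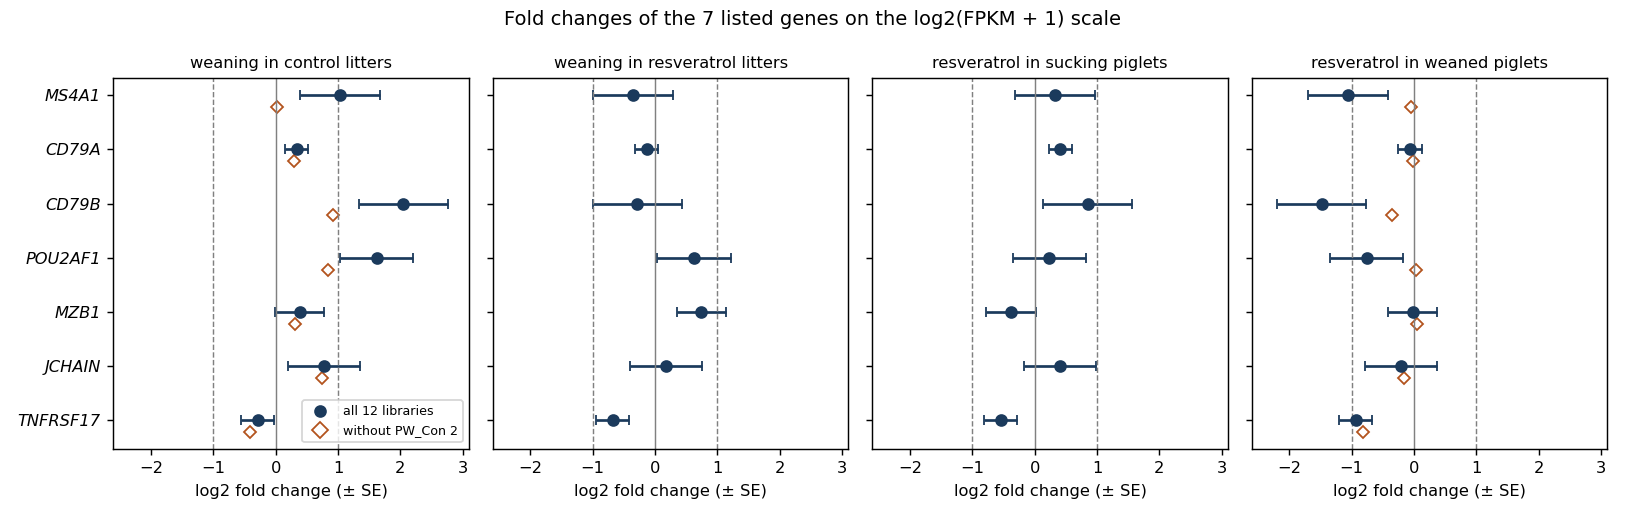
Log2 fold changes of the 7 genes with standard errors (circles) in 4 comparisons; diamonds give the value without PW_Con replicate 2 in the comparisons that use it, and dashed lines mark log2 fold changes of -1 and 1. CD79B and POU2AF1 lie above 1 in control litters with all libraries and at 0.93 and 0.83 without PW_Con replicate 2, while TNFRSF17 is below 0 in all 4 comparisons.

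The comparison of litters of resveratrol-fed and control sows asks whether the maternal diet went with different levels in the offspring. In weaned piglets and over both ages, TNFRSF17 had the lowest P of the 7 genes. In weaned piglets it had a log2 fold change of -0.94 in PW_Res against PW_Con (SE 0.26, limma adjusted p = 0.466), without overlap, and was inside the fold limit of the standard. An unadjusted P under 0.05 was found for 7.76% of all genes tested there, and libraries without overlap for 17.2%. In sucking piglets its log2 fold change was -0.54 (SE 0.26), with an unadjusted P over 0.05 and again without overlap, which 21% of all genes tested showed. Without W_Res replicate 2 it was -0.21 in sucking piglets. Over both ages it was -0.74 (SE 0.19, limma adjusted p = 0.197), and 12.3% of all genes tested had an unadjusted P under 0.05. With each library left out in turn, the value over both ages lay between -0.84 and -0.57, each with an unadjusted P under 0.05.

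T cell genes were lower in the same groups. The sum of 14 T cell genes was 172 to 221 FPKM in W_Con, 134 to 207 FPKM in PW_Con, 65.7 to 105 FPKM in W_Res and 54.5 to 128 FPKM in PW_Res, and none of the 14 was at 0 in all libraries of a group. Over both ages 12 of the 13 T cell genes tested had a log2 fold change below 0, as had 5937 of the 12886 genes tested. Past the standard were 5 of the 13, and 0.939% of all genes tested met it. By age, 5 of the 13 were past the standard in sucking piglets (10 below 0, median -0.61) and none in weaned piglets (13 below 0, median -0.69, and -0.40 without PW_Con replicate 2). The standard was met by 4.77% of all genes tested in sucking piglets and by 1.55% in weaned piglets. Below 0 were 5505 of the 12886 genes tested in sucking piglets and 7592 in weaned piglets. Of the 5 over both ages, CD3E, a chain of the T cell receptor complex, had a log2 fold change of -1.35 (SE 0.28, limma adjusted p = 0.131). CD3G, another chain of that complex, had -1.07 (SE 0.19, limma adjusted p = 0.0602) and came inside the fold limit without W_Con replicate 1 (-0.97) or PW_Res replicate 3 (-0.98). CD3D had -1.56 (SE 0.39), and CD247 had -1.19 (SE 0.28) and came inside the fold limit without PW_Res replicate 3 (-0.92). The Pearson correlation of TNFRSF17 with the T cell genes was 0.58 over the 12 libraries (Spearman 0.80). The part of T cells in the level of TNFRSF17 was not tested.

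None of the 7 genes met the standard between diets at either age or over both ages, where 4.77% of all genes met it in sucking piglets and 1.55% in weaned piglets. In weaned piglets all 7 log2 fold changes were below 0, while 41% of all genes tested were above 0. Without PW_Con replicate 2, 5 of the 7 were below 0. Separately, with all libraries and median-of-ratios rescaling, the CD79A row (-0.0642) and MZB1 (-0.0234) turned above 0, to 0.0309 and 0.0663. CD79B had -1.48 (SE 0.71, unadjusted P over 0.05), and -0.36 without PW_Con replicate 2, with PW_Res below PW_Con in every library. MS4A1 had -1.06 (SE 0.64) and -0.05 without PW_Con replicate 2. MS4A1 passed the filter only through that library, so the count over the 7 genes is a description. In sucking piglets the CD79A row had a log2 fold change of 0.41 (SE 0.19, limma adjusted p = 0.263, unadjusted P under 0.05, which 18.5% of all genes tested had), and CD79B of 0.85 (SE 0.71), both without overlap. In the same comparison all 10 smooth muscle genes were above 0, 7 of them past the standard (median 1.99) and 4 without W_Res replicate 2, and their part was not tested. Over both ages, the log2 fold change was 0.10 (SE 0.41) for JCHAIN, -0.20 (SE 0.28) for MZB1 and -0.26 (SE 0.42) for POU2AF1. No gene of the 7 had an adjusted p under 0.05 in any of the 7 contrasts. Over all genes tested, limma gave 6 such genes (0.0466%) for resveratrol in sucking piglets, 10 (0.0776%) for weaning over both sets of litters and 18 (0.14%) for resveratrol over both ages, and 0% in the other 4 contrasts.

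Other genes of the lineage were described from lists. Over both ages, 10 of the 12 other B cell genes tested had a log2 fold change below 0 in resveratrol litters, 4 with an unadjusted P under 0.05 and none past the standard. Their median was -0.46, and 0.03 over all genes tested. Of the 12, 8 were below 0 without PW_Con replicate 2, with a median of -0.14. By age, 7 of the 12 were below 0 in sucking piglets (median -0.057) and 11 in weaned piglets (median -0.84, and -0.17 without PW_Con replicate 2). Of the 12886 genes tested, 5505 were below 0 in sucking piglets and 7592 in weaned piglets. In weaned piglets 2 of the 12 were past the standard below 0, as were 116 of the 12886 genes tested. Without PW_Con replicate 2 this was 1 of the 12. CD72, a B cell surface receptor that dampens signalling, had -0.83 (SE 0.19, limma adjusted p = 0.148). CD180, a B cell receptor related to the toll-like receptors, had -0.79 (SE 0.20, limma adjusted p = 0.19). CD40, a receptor through which T cells help B cells, had -0.52 (SE 0.20), and BTK, a kinase of B cell receptor signalling, had -0.63 (SE 0.27), and -0.40 without PW_Res replicate 3. In the difference of the weaning effects, CD22, an inhibitory receptor of B cells, had -1.34 (SE 0.44), CD72 had -1.05 (SE 0.37) and CD40 had -0.91 (SE 0.41). CD22 and CD72 were past the standard, but not without PW_Con replicate 2 (-0.91 and -0.92), and CD72 not without W_Res replicate 2 (-0.78) or with median-of-ratios rescaling (-0.92). Among the 9 germinal centre and follicle genes tested, 8 were below 0 in resveratrol litters over both ages (5937 of the 12886 genes tested were) and 1 was past the standard. Of the 9, 5 were below 0 without PW_Con replicate 2. By age, 5 were below 0 in sucking piglets (median -0.15) and 9 in weaned piglets (median -0.77, and -0.44 without PW_Con replicate 2). In weaned piglets 4 of the 9 were past the standard below 0, and 1 without PW_Con replicate 2. In sucking piglets 1 was past it above 0 and 1 below 0, where 4.77% of all genes tested met it. The gene past the standard over both ages was CXCL13, the chemokine that draws B cells into follicles, with -1.88 (SE 0.46, limma adjusted p = 0.188). CXCL13 was at 4.40, 1.67 and 5.38 FPKM in W_Con, at 28.5, 24.6 and 6.14 FPKM in PW_Con, at 5.01, 5.71 and 0.493 FPKM in W_Res, and at 1.25, 0.0710 and 0.385 FPKM in PW_Res. Its log2 fold change between diets was -3.55 (SE 0.65, limma adjusted p = 0.335) in weaned piglets and -0.20 (SE 0.65) in sucking piglets. Over both ages it stayed past the standard with each library left out. GCSAM, a signalling protein of germinal centre B cells, had -0.67 (SE 0.18) over both ages, and CCR7, a receptor that guides lymphocytes into lymphoid tissue, had -0.60 (SE 0.22). With weaning over both sets of litters, CCR7 was the 1 gene of the 9 past the standard, at 1.05 (SE 0.22, limma adjusted p = 0.0629). It came inside the fold limit, at 0.90 to 0.995, without W_Con replicate 1, PW_Con replicate 2, W_Res replicate 3 or PW_Res replicate 2. In control litters 3 of the 9 were past the standard above 0 (median 0.85), as were 1.36% of all genes tested. Without PW_Con replicate 2 this was 2 (median 0.32). In resveratrol litters 2 were past it below 0 (median -0.25), as were 509 of the 12886 genes tested. Without W_Res replicate 2 this was 1. For the difference of the weaning effects, 4 of the 9 were past the standard, all below 0, where 5.95% of all genes tested were past it in the lower direction. They were CXCL13 (-3.35), CCL19 (-2.40), CCL21 (-2.03) and S1PR2 (-1.86). The median of the 9 was -1.18, and -0.15 over all genes tested. With PW_Con replicate 2 left out, 3 were past the standard below 0 and 1 above 0, and the median was -0.60. CCL19 and CCL21 are the chemokines that draw lymphocytes into lymphoid tissue, and S1PR2 holds B cells within germinal centres. CCL19 did not meet the standard without W_Con replicate 3 (-2.05), PW_Con replicate 2 (-1.67), PW_Con replicate 3 (-2.27), W_Res replicate 1 (-2.22) or PW_Res replicate 1 (-2.08). Smooth muscle genes also differed in this contrast, with 7 of 10 past the standard, all below 0 (median -2.43), and summed levels of 796 to 5105 FPKM in W_Res against 196 to 818 FPKM in the other groups. Without W_Res replicate 2, 4 of the 10 were past the standard (median -1.79). Of 10 myeloid genes 3 were past the standard, all below 0 (median -0.70), namely CD33 (-1.23), TYROBP (-1.05) and C1QC (-1.24), and none was without W_Res replicate 2. TYROBP and C1QC were also not past it with median-of-ratios rescaling (-0.88 and -1.05) or without W_Con replicate 3 (-0.91 and -1.16), nor was C1QC with no filter or without any 1 of 6 further libraries. The summed levels of the myeloid genes were 310 to 377 FPKM in W_Con, 282 to 751 FPKM in PW_Con, 365 to 859 FPKM in W_Res and 295 to 486 FPKM in PW_Res. The part of smooth muscle and myeloid genes in these differences was not tested.

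Genes of plasma cells went in mixed directions. Of 13 tested plasma cell genes, 9 had a log2 fold change above 0 with weaning over both sets of litters (median 0.26, and -0.10 over all genes), and none met the standard. In control litters alone 2 met it above 0 and 1 below 0, where 3.1% of all genes tested met it. In resveratrol litters 0 of the 13 met it. DERL3 and FKBP11, proteins of the endoplasmic reticulum that secretory cells need, had log2 fold changes of 0.80 (SE 0.25) and 0.50 (SE 0.19). CD38, an ectoenzyme of plasma cells and activated T cells, had -0.88 (SE 0.32). In resveratrol litters over both ages, 8 of the 13 were lower and 1 met the standard, SLAMF7, a surface receptor of plasma cells and cytotoxic lymphocytes, with -1.07 (SE 0.34, limma adjusted p = 0.279). It was inside the fold limit without W_Con replicate 2 (-0.98), W_Res replicate 1 (-0.91), W_Res replicate 3 (-0.92) or PW_Res replicate 1 (-0.93). CD38 had -0.89 (SE 0.32) there, and PRDM1, the transcription factor that drives plasma cell differentiation, had -0.76 (SE 0.31). Of the 12 tested genes of IgA induction and transport, none met the standard in either contrast or in the difference of the weaning effects. With weaning in control litters alone 2 met it above 0, and 1 without PW_Con replicate 2. Over both ages in resveratrol litters, IL10, a cytokine, had -0.72 (SE 0.14, limma adjusted p = 0.106), ITGB7, an integrin chain with which lymphocytes home to the gut, had -0.71 (SE 0.21), CCL25, a chemokine of the small intestine, had 0.33 (SE 0.15), and IL21R, a cytokine receptor, had -0.35 (SE 0.16). In the difference of the weaning effects IL21R had -0.86 (SE 0.32) and TGFB1, a cytokine of IgA switching, had -0.92 (SE 0.38).

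Immunoglobulin chains are the product of these cells. Of 16 listed chain genes, IGLC, the lambda light chain constant region, was the only name with a row. It was at 226, 155 and 322 FPKM in W_Con, at 1170 (replicate 1), 1342 and 379 FPKM in PW_Con, at 288, 516 and 392 FPKM in W_Res, and at 232, 731 and 1115 FPKM in PW_Res. Every PW_Con library lay above every W_Con library, while PW_Res and W_Res overlapped. Over both sets of litters its log2 fold change with weaning was 1.24 (SE 0.42, limma adjusted p = 0.169), which met the standard, and 0.996 without PW_Res replicate 3, which did not. The log2 fold change was 1.90 (SE 0.59) in control litters, past the standard, and 0.57 (SE 0.59) in resveratrol litters, not past it. A further 10 rows with light chain names were chosen after the table was seen, and no test of them is given. Values are given for part of them, and those of IGLV-1, IGKJ3, IGKJ4 and IGKJ5 are not given. IGLV-2 was at 19.5, 11.4 and 38.2 FPKM in W_Con, at 87.0, 200.2 and 96.1 FPKM in PW_Con, at 27.0, 38.2 and 31.0 FPKM in W_Res, and at 62.1, 107 and 180 FPKM in PW_Res, so that weaned libraries lay above sucking libraries in both sets of litters. IGLV-8 had the same order, at 2.31 to 9.27 FPKM and 20.9 to 35.8 FPKM in control litters and at 6.34 to 10.4 FPKM and 11.7 to 41.0 FPKM in resveratrol litters. In control litters 24.9% of all genes tested did not overlap between the ages, and this share is not given for resveratrol litters. The order of rows chosen after the table was seen is a description. Of 4 rows of kappa variable segments, 3 overlapped between the ages in control litters, and their values in resveratrol litters are not given. IGKV-11 was at 12.9 to 48.8 FPKM in W_Con and 14.4 to 65.1 FPKM in PW_Con, IGKV-7 at 9.85 to 126 FPKM and 101 to 176 FPKM, and IGKV at 0.0342 to 3.80 FPKM and 1.63 to 2.25 FPKM. IGKV-6, at low levels, did not overlap in either set of litters. It was listed at 0 in every W_Con library, at 0.508 to 0.653 FPKM in PW_Con, at 0 to 0.312 FPKM in W_Res and at 0.374 to 0.512 FPKM in PW_Res. Light chain segments share sequence within families, and whether fragments were split among rows was not tested. The correlations use the 6 light chain rows with a mean of at least 0.5 FPKM, IGLC among them. Over the 12 libraries, JCHAIN had a Pearson correlation of 0.65 (Spearman 0.55) with these 6 rows, POU2AF1 of 0.79 (Spearman 0.95), TNFRSF17 of -0.47 (Spearman -0.39) and MZB1 of 0.01. For POU2AF1 it was 0.95 (Spearman 0.96) without PW_Con replicate 2.

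**Figure D5:**
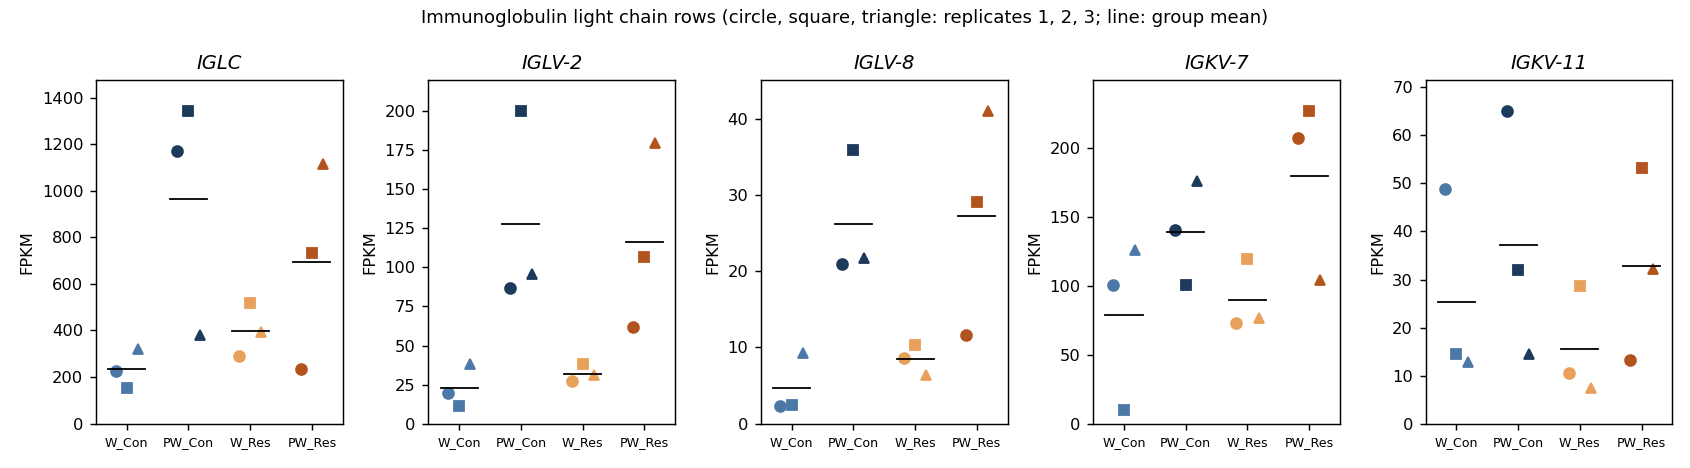
FPKM of 5 immunoglobulin light chain rows in each library by group. IGLV-2 and IGLV-8 lie higher in all weaned than in all sucking libraries of the same diet, and IGLC does so in control litters, from 155 to 322 FPKM in W_Con and from 379 to 1342 FPKM in PW_Con. In control litters 24.9% of all genes tested did not overlap between the ages.

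The genes whose levels followed the mean standardized level of the 7 genes most closely over the 12 libraries included FCAMR (Pearson correlation 0.90), SLC15A2 (0.88), CR2 and ELL3 (0.86 each), CLU and PROCR (0.84 each) and CD22 (0.83), with 2 genes known only by Ensembl identifier (0.89 and 0.84). Without the 2 libraries farthest from the median of this mean, PW_Con replicate 2 and W_Con replicate 2, the correlations of these 9 genes were between 0.14 and 0.63. FCAMR, CR2 and the gene known by Ensembl identifier at 0.84 passed the minimum mean of 0.5 FPKM only through PW_Con replicate 2. The same library was highest in the mean of the 7 genes, so their likeness is a description only. Pairs among the 7 genes ranged widely over the 11 libraries without PW_Con replicate 2. CD79A and CD79B had a Pearson correlation of 0.83, POU2AF1 and JCHAIN of 0.58, JCHAIN and MZB1 of 0.01, TNFRSF17 and POU2AF1 of -0.54, and MS4A1 and MZB1 of -0.75 (Spearman 0.03). The points of all these correlations share libraries and groups.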

How the data were processed

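Poly(A) RNA of jejunum was sequenced from 12 piglets. The authors deposited 1 table of FPKM per locus. Per the study's methods, reads were aligned with TopHat and levels estimated with StringTie and Ballgown, while the submitters' processing notes name Bowtie 0.12.2, HISAT2 2.0 and StringTie 1.3.0. No counts are given, so that the depth per gene is unknown and no counting interval was made. The notes name a pig genome build and a mouse build, and which aligner and build made the table could not be settled. The table gives no coordinates, and the RefSeq annotation, of another pig build than the one the notes name, was used for gene neighbours only. Assembled loci can join neighbouring genes under 1 name. Rows without a gene name (17650, 42.8%) were left out, 2907 rows named by an Ensembl identifier were given the symbol of the pig annotation, and rows of 1 name were summed. Groups came from the sample labels. Values were compared as log2(FPKM + 1) with limma 3.58.1 in R 4.3.3 (lmFit, 7 contrasts of 4 group means over all 12 libraries, eBayes with a trend) over 12886 genes with a mean of at least 0.5 FPKM, and p-values were adjusted by Benjamini-Hochberg over all of them. On this scale, changes of genes with low levels appear smaller than they are. The study's standard is an unadjusted P under 0.05 with a log2 fold change above 1 or below -1. On simulated data for the control weaning contrast, 194 of 200 genes changed by a log2 fold change of 2 met it (97%), over 12886 genes. Of the unchanged genes, 12 had an adjusted p under 0.05. The changed genes were drawn only from genes with higher mean levels, and the noise was normal. The 97% therefore does not cover genes with lower levels, as MS4A1, CD79B, POU2AF1 and TNFRSF17 had, or genes with 1 high library. Correlations are descriptions, with mean standardized log2(FPKM + 1) for lists. From the other lists, at most 4 genes with the lowest P under 0.05 were named per list and contrast (weaning and resveratrol over both sets, and their interaction), and the 10 genes most like the 7. Genes that the rule names from the epithelial, distal small intestine, smooth muscle and cell division lists, and from the myeloid list outside the interaction, were left out of the text. Values of a few further genes are not reported here. Genes highest in PW_Con replicate 2 and the light chain rows other than IGLC were named after their values were seen. The members and lists were chosen with earlier results of these data known. Alternatives were a pseudocount of 0.1, no filter, median-of-ratios rescaling, a replicate block, only the groups compared, rows not summed, no trend, and each replicate left out.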

Additional observations from a re-analysis of the deposited data

Results flagged for a closer look

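The weaning effect of CD79B differed between the litters of control and resveratrol-fed sows by -2.33 on the log2(FPKM + 1) scale, by the interaction term (SE 1.01, limma adjusted p = 0.340, unadjusted P under 0.05). The effect was 2.05 in control litters and -0.28 in resveratrol litters. With a library left out, it lay between 0.93 and 2.71 in control litters and between -0.53 and -0.0167 in resveratrol litters. The libraries behind it were at 0.644 to 1.50 FPKM (W_Con), 2.25 to 37.5 FPKM (PW_Con), 1.51 to 4.13 FPKM (W_Res) and 1.65 to 2.23 FPKM (PW_Res). The difference was -1.21 without PW_Con replicate 2, with an unadjusted P under 0.05. The unadjusted P was over 0.05 with no filter (-2.33), with median-of-ratios rescaling (-2.21) and without any 1 of 7 single libraries (-2.41 to -2.06).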

How the results depend on the processing

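FPKM carry no counts, so limits set by depth are unknown, and groups of 3 limit the precision. The count of the 7 genes past the standard changed as follows. In control litters it was 2, and 1 with only the groups compared (POU2AF1, since the unadjusted P of CD79B was over 0.05), and it ran from 0 to 3 with replicates left out. In resveratrol litters it was 0, and 1 with rows not summed (TNFRSF17), with 0 to 1 with replicates left out. For the difference of the weaning effects it was 1, and 0 with no filter or with median-of-ratios rescaling, with 0 to 1 with replicates left out. For resveratrol in weaned piglets it was 0, and 1 with a pseudocount of 0.1 (TNFRSF17, -1.21), with the replicate block (CD79B, -1.48) and with rows not summed (TNFRSF17, -1.15), with 0 to 3 with replicates left out. For weaning over both sets of litters it was 1, with 0 to 2 with replicates left out. For resveratrol in sucking piglets and over both ages it was 0 under every alternative run. Genes that came past the standard with 1 library left out were MS4A1 with weaning in control litters (1.54 without PW_Con replicate 1 and 1.55 without PW_Con replicate 3, both resting on PW_Con replicate 2, through which alone it passed the filter), TNFRSF17 (-1.02 without W_Res replicate 2) and MZB1 (1.20 without W_Res replicate 3) with weaning in resveratrol litters, and CD79B with weaning over both sets (1.21 without PW_Con replicate 1). Between diets in weaned piglets they were CD79B (-2.14) and MS4A1 (-1.56) without PW_Con replicate 1, and CD79B (-1.94), MS4A1 (-1.57) and TNFRSF17 (-1.05) without PW_Con replicate 3, while MS4A1 was at -0.0479 without PW_Con replicate 2.

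Deviations of libraries with the same replicate number had a median correlation of 0.014, and 5 of 18 pairs were over 0.1. For libraries with different numbers the median was 0.033, and 7 of 36 pairs were over 0.1. The pairs include libraries of different diets, which cannot share a litter, so whether the numbers stand for litters cannot be read from these values. Apart from CD79B in weaned piglets, the replicate block changed no count of the 7 genes. Over all genes, a pseudocount of 0.1 raised the count past the standard from 399 to 783 in control litters, from 636 to 1237 in resveratrol litters, from 615 to 1185 for resveratrol in sucking piglets, from 200 to 456 in weaned piglets, from 183 to 591 for weaning over both sets and from 121 to 379 for resveratrol over both ages. Replicates left out gave 389 to 1095 in resveratrol litters, 630 to 1363 for the difference (1000), 414 to 1017 for resveratrol in sucking piglets, and for it in weaned piglets 201 to 357.

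Directions turned only for log2 fold changes that had not met the standard. With median-of-ratios rescaling these were the CD79A row in resveratrol litters (0.0604) and in weaned piglets between diets (0.0309), and MZB1 in weaned piglets between diets (0.0663). With replicates left out, values ran as follows. In weaned piglets between diets they ran from -0.18 to 0.0265 for the CD79A row, from -0.24 to 0.18 for MZB1, from -1.20 to 0.0263 for POU2AF1 and from -0.78 to 0.16 for JCHAIN. In sucking piglets between diets they ran from -0.84 to 0.13 for MZB1, from -0.0555 to 0.51 for POU2AF1 and from -0.13 to 0.85 for JCHAIN. Over both ages between diets they ran from -0.65 to 0.25 for CD79B, from -0.62 to 0.14 for MS4A1, from -0.43 to 0.0531 for MZB1, from -0.48 to 0.13 for POU2AF1 and from -0.19 to 0.32 for JCHAIN. They ran from -0.40 to 0.54 for JCHAIN in resveratrol litters with weaning, from -0.17 to 0.60 for MS4A1 with weaning over both sets, and from -0.15 to 0.82 for MZB1 in the difference. The causes were not tested.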
